A study of Mus musculus with 8 samples.

Results

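The comparison described here sets 4 cell lines, derived from tumours that JoMa1 cells transfected with MYCN had formed in immunocompromised mice, against the parental JoMa1 cells. JoMa1 is a mouse line of neural crest precursor cells. RNA of cultured, subconfluent cells was measured on Affymetrix expression arrays, 1 array a sample. It takes 7 of the series' 8 arrays: parental JoMa1 arrays 1, 2 and 3, and tumour lines 3, 4, 5 and 6, numbered as in the labels. The remaining array, labelled as JoMa1 transfected with a GFP control, enters only where its level is set beside the others. The labels name these samples both as tumours and as lines derived from them, and the protocol's harvest at a set confluency is why they are called lines here. Both groups come from the same JoMa1 line, which is 1 line, and the labels describe the tumours as independent without saying whether the transfected cells were a pool or a clone. No label ties the parental arrays to separate cultures, so the p-values measure the spread between these arrays, which may be technical for that group. All 18193 genes with a probe set of 1 symbol were compared, with attention to genes and families beyond the largest changes.

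MYCN is a transcription factor of the MYC family that pairs with MAX and binds the E-box CACGTG, and its amplification marks high-risk neuroblastoma, a childhood tumour of the neural crest lineage. Neural crest cells leave the dorsal neural tube, migrate, and give rise to sympathetic neurons, glia, pigment cells and parts of the facial skeleton. JoMa1 cells are known to carry a form of MYC that tamoxifen activates. The labels do not say which groups received tamoxifen in culture.

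Levels are log2 values from RMA, so that a difference of 1 is a 2-fold change. Genes with an adjusted p below 0.05 in limma were called, and "rose" and "fell" are used of called genes only, always for tumour lines against parental cells. Of the 18193 genes, 6547 (36.0%) were called, 3013 (16.6%) as rises and 3534 (19.4%) as falls. At least a 2-fold change was found for 1611 (8.86%), namely 896 rises (4.92%) and 715 falls (3.93%). All 4 tumour lines lay beyond all 3 parental arrays for 8076 genes (44.4%). These shares are the background against which counts of smaller groups of genes are to be read.

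Mycn itself was read first. Its brightest probe set stood at 7.29, 7.49 and 7.49 on parental arrays 1 to 3 and at 14.13, 14.08, 14.20 and 14.26 in tumour lines 3 to 6. The groups did not overlap, and the difference was 6.74 (SE 0.08, 107-fold, limma adjusted p = 1.79e-09). Another probe set of Mycn fell by 3.53, and a further one differed by 0.30 and was not called. On the array labelled GFP-transfected the brightest probe set read 11.73, a level that this label does not account for. The labels do not name the species of the transfected gene.

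The labelled cell type was checked on crest genes. Sox10, Sox9, Twist1, Nes and Ngfr, which mark crest cells or their precursors, were not called. Nes (-0.52, limma adjusted p = 0.0909) was called lower without tumour line 6 (-0.72, limma adjusted p = 0.00218) and with the mean of its probe sets (-0.46, limma adjusted p = 0.0497). Sox10 stood between 7.19 and 7.41 in parental cells and between 7.40 and 7.47 in tumour lines, and Ngfr was low throughout (5.08 to 5.53). Snai2, which drives the release of crest cells from the epithelium, was high in both groups and rose by 0.53 (SE 0.12, limma adjusted p = 0.00791). Tfap2a was not called, but tumour line 5 read 7.43 where the other 3 lines read 5.74 to 6.25 and parental cells 5.48 to 5.80. Of 24 crest markers, 5 rose and 6 fell (45.8% called, against 36.0% of all genes), 3 of each by at least 2-fold. The largest fall on this list was that of Tfap2b (-5.20). The largest rise was that of Mycn, given above, which is counted here although MYCN was transfected into the cells that formed the tumours. The rise of Mycn is therefore no sign of crest identity. The crest markers that were not called therefore do not stand for the whole list. Some genes of other cell types were low in both groups. Ptprc of leukocytes had a mean of 4.14 in parental cells and 4.08 in tumour lines, Pecam1 of endothelium 4.55 and 4.40, and Adipoq of fat cells 4.30 and 4.26. These examples do not stand for every marker of their lists. Of 24 leukocyte markers 3 rose and 0 fell, and their mean level ran from 5.18 to 5.26 over parental arrays and from 5.32 to 5.42 over tumour lines. Of 11 keratinocyte markers 2 rose, Perp by 4.09 (from a mean of 6.08 to 10.17) and Krt10 by 0.99 (from 7.68 to 8.68). The mean level of this list was 5.90 to 6.06 over parental arrays and 6.45 to 6.87 over tumour lines. Among 15 endothelial markers 1 rose and 1 fell, among 16 of skeletal muscle 2 rose and 2 fell, among 8 of red cells 1 rose, and among 8 of fat cells 1 fell. The part of these genes in the results below was not tested, and in RNA from a whole culture fewer cells of a type and less RNA per cell cannot be told apart.

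The groups stood further from each other than arrays did within them. Over the 9096 genes above the median level, the median absolute difference between 2 arrays was 0.049 to 0.071 among parental arrays, 0.149 to 0.193 among tumour lines and 0.325 to 0.376 between the groups. Parental arrays had 0 to 2 genes that were 2-fold apart in a pair, tumour lines 130 to 242, and pairs across the groups 1081 to 1353. Lines 4 and 5 formed the pair with the most such genes among tumour lines. Spiked-in bioB, a control of hybridisation, was lowest on parental array 3 (8.67), reached 9.40 on the other parental arrays and lay between 9.31 and 9.65 on tumour lines. Probe sets at the 3' and 5' end of Actb differed by 0.627 to 0.641 in parental cells and by 0.516 to 0.613 in tumour lines, and those of Gapdh by 0.053 to 0.078 and by 0.092 to 0.151. The part of any of these in the results was not tested.

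Most called changes were small. Of the 6547 called genes, 217 differed by under 0.25 on the log2 scale, 2294 by 0.25 to 0.5 and 2425 by 0.5 to 1. A further 1084 lay between 1 and 2, 432 between 2 and 4, and 95 at 4 or more, of which 61 rose and 34 fell. Below 0.25 only 2.02% of genes were called, and between 0.25 and 0.5 the share was 71.0%. Some changes of just under 2-fold were as tight as the largest ones. Those given here were picked as the tightest of that size, so their small spread comes with the choice. Prkaa1, the catalytic subunit of the energy-sensing kinase AMPK, read 9.05, 8.98 and 9.02 in parental cells and 10.02, 9.97, 9.97 and 9.98 in tumour lines 3 to 6, a rise of 0.97 (SE 0.06, limma adjusted p = 8.37e-06). The groups were far apart for their small spread. Grb2, the adaptor that links receptor kinases to RAS, rose by 0.99 (SE 0.06), from 9.35 to 9.44 in parental cells to 10.36 to 10.42 in the lines. The checkpoint ubiquitin ligase gene Chfr (0.95), the peroxiredoxin gene Prdx4 (0.98) and Atp6ap1 of the proton-pumping ATPase (0.97) rose as tightly. In the other direction, Top1, the DNA topoisomerase I gene, read 12.62, 12.60 and 12.54 and then 11.70, 11.66, 11.60 and 11.59, a fall of 0.95 (SE 0.06, limma adjusted p = 1.3e-05). The synthetases that load leucine and isoleucine onto transfer RNA in cytosol and mitochondria, Lars (-0.87) and Iars2 (-0.95), the lipid phosphatase gene Fig4 (-0.98), Gtdc1 (-0.96) and Ubtd2 (-0.99) fell by similar amounts. Other probe sets of Chfr (-0.02), Top1 (0.01) and Gtdc1 (-0.12 and 0.08) were not called.

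The next rises after the 8 largest are given here by rank. Saa3, an acute phase apolipoprotein, stood at 7.54, 7.54 and 7.15 in parental cells and at 12.80, 13.06, 13.41 and 12.92 in tumour lines 3 to 6, a rise of 5.64 (SE 0.16, limma adjusted p = 1.48e-07). Il11, a cytokine of the IL-6 family, read 5.74, 5.90 and 5.69 and then 11.79, 10.58, 12.02 and 11.08 (5.59, SE 0.31). The matricellular gene Ccn5 was the most even of them, with 12.53 to 12.64 in the 4 lines against 6.86 to 7.25 before (5.49, SE 0.10). Asb4 (5.80, SE 0.31), the water channel gene Aqp1 (5.70, SE 0.24) and the WNT antagonist gene Dkk2 (5.64, SE 0.50) rose as much. The lectin pathway protease gene Masp1 rose by 5.42 (SE 0.14), or by 3.45 without probe sets that may bind several transcripts, and the C1 inhibitor gene Serping1 by 5.28 (SE 0.41). Reln, a secreted guide of migrating neurons, rose by 5.23 (SE 0.28), although another of its probe sets differed by -0.01 and was not called. The homeobox gene Shox2 (5.39), the receptor-associated gene Ramp1 (5.14), Tmem45a (5.26), Ranbp3l (5.15), the paraoxonase gene Pon3 (5.09), Susd1 (5.08) and the calponin gene Cnn1 (5.04) complete the group. Shox2 and Ranbp3l spread most over the lines, from 8.98 to 11.45 and from 8.07 to 10.63. The array labelled GFP-transfected lay near the parental level for Shox2 (4.86) and Ccn5 (6.44) and above it for Il11 (7.05).

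**Figure D1:**
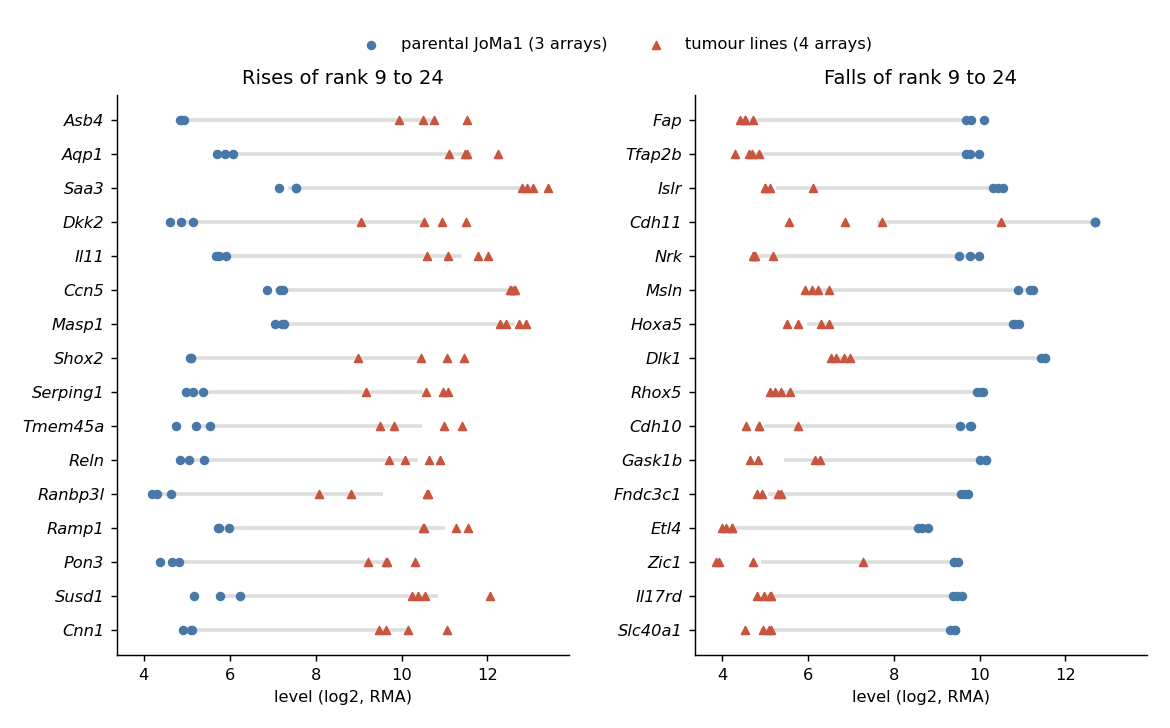
Level of each gene (log2, RMA) on the x axis for the 16 rises and the 16 falls of rank 9 to 24, 1 row a gene; circles are the 3 parental arrays, triangles the 4 tumour lines, and the bar joins the group means. Ranks were taken only among called genes whose groups do not overlap, so none shown overlaps. Cdh11 and Zic1 on the right spread most over the lines.

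The falls of the same ranks follow. Fap, a membrane protease of activated fibroblasts, stood at 10.10, 9.69 and 9.81 in parental cells and at 4.43, 4.54, 4.73 and 4.54 in tumour lines, a fall of 5.31 (SE 0.11, limma adjusted p = 4.67e-08). Tfap2b, the AP-2 factor of sympathetic and crest derivatives, read 9.99, 9.69 and 9.78 and then 4.86, 4.71, 4.31 and 4.62 (-5.20, SE 0.13). Both ended near the bacterial trpnX control probe sets, which read 3.56 to 4.47 and mark the floor of the arrays. Cdh11, a cadherin of mesenchymal and migrating crest cells, was the least even, at 12.68 to 12.70 in parental cells and at 6.86, 10.50, 7.72 and 5.56 in lines 3, 4, 5 and 6 (-5.03, SE 0.96, limma adjusted p = 0.00366). On the array labelled GFP-transfected Cdh11 was low too (5.70). Zic1 was at 9.40 to 9.50 and then at 3.85, 4.72, 7.29 and 3.93, so that line 5 kept the highest level (-4.48, SE 0.74). Islr (-5.12), the mesothelin gene Msln (-4.91), the Notch-related Dlk1 (-4.74), the homeobox gene Hoxa5 (-4.82), the kinase gene Nrk (-4.91) and the X-linked homeobox gene Rhox5 (-4.69) fell with an SE of 0.26 or less. Without probe sets that may bind several transcripts Dlk1 differed by -2.07. Cdh10 (-4.69), Gask1b (-4.62), Fndc3c1 (-4.54), Etl4 (-4.53), Il17rd, which restrains FGF signalling (-4.47), and the iron exporter gene Slc40a1 (-4.46) make up the rest. Of the other probe sets of Etl4, -0.13 and -0.04 were not called, and 1 of Cdh10 was not called either (-0.01). The array labelled GFP-transfected was as low as the lines for Fap (4.87), Islr (4.82) and Cdh10 (4.66), lower than parental cells but far above the lines for Tfap2b (8.77), and above parental cells for Zic1 (9.67) and Rhox5 (12.27).

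Some genes passed from the floor of the array to a clear signal or back. With a bound of 5.465, which is 1 above the highest trpnX value, 21 genes had all parental arrays at or under the bound and all tumour lines at least 3 above it, and 12 genes showed the reverse. Among the rises were Rgs2, Rorb, Pate14, Dynap, Lcn2, Gem, Asb4 and Pon3. Falls to the floor included Bex1, Slc38a4, Col4a2, Fap, Tfap2b, Nrk, Etl4 and Il17rd. Pou3f3, a POU factor of neural progenitors, went from 9.32 to 9.41 in parental cells to 5.15 to 5.34 in the lines (-4.13, SE 0.07), and another of its probe sets differed by -0.04 and was not called. Casp1, the inflammasome protease that matures IL-1, went the other way, from 5.17, 5.04 and 5.13 to 9.27, 9.94, 10.16 and 9.48 (4.60, SE 0.20, limma adjusted p = 1.23e-06). A further 4040 genes were at or under the bound on all 7 arrays. Some of these were still called, although their levels lie near the floor.

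The measured genes were also grouped in 67 families, which hold 3259 genes. In 36 families the share of called members was above the 36.0% of all genes. Called rises outnumbered falls in 34 families, falls outnumbered rises in 30, and 3 had as many of each. The median difference of all genes was 0.013. Lists differ in level, and among genes above the median level 23.1% rose and 31.4% fell, so shares of highly expressed lists are to be read against these values too.

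**Figure D2:**
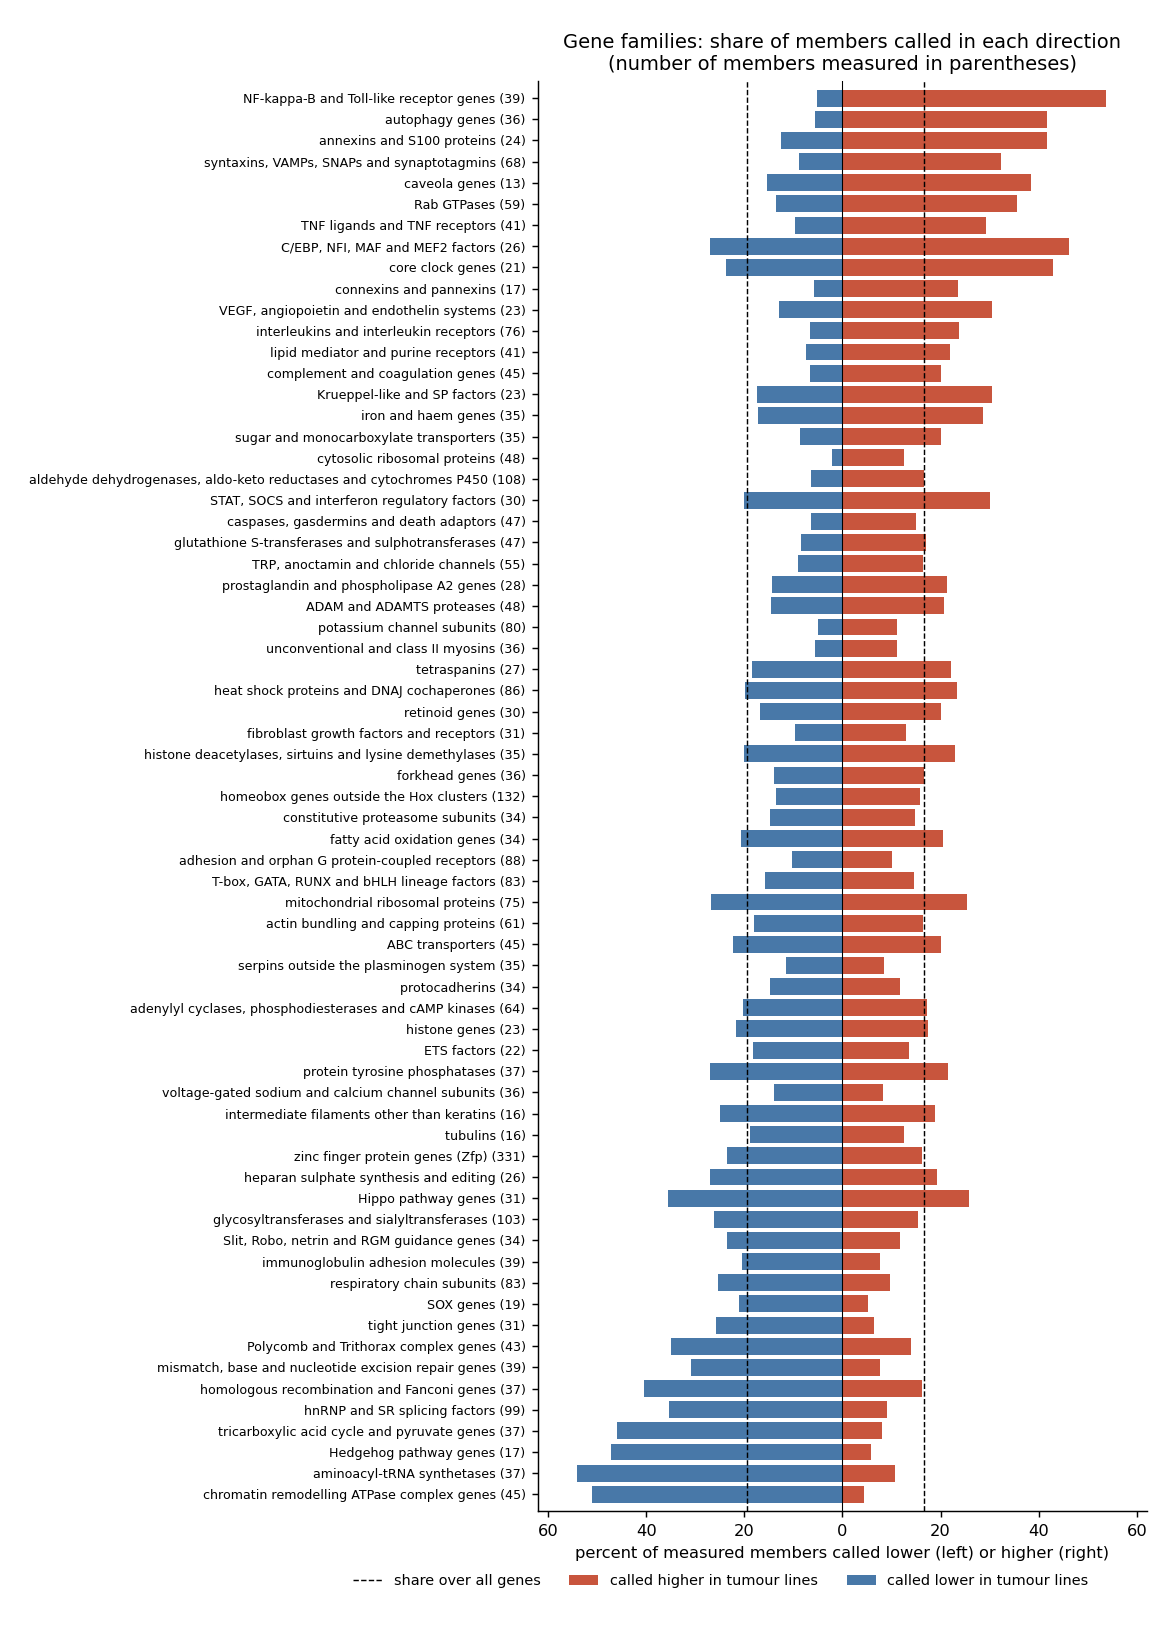
Percent of the measured members of each of the 67 families called lower (bars to the left) or higher (bars to the right) in tumour lines; dashed lines mark the 19.4% and 16.6% of all genes, and families are ordered by the difference of both shares. NF-kappa-B and Toll-like receptor genes stand at the top with 53.8% called higher, chromatin remodelling ATPase complexes at the bottom with 51.1% called lower.

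In the lists of inflammatory signalling called rises outnumbered falls, most clearly in the first list given here. Of 39 genes of the NF-kappa-B and Toll-like receptor system, 21 rose and 2 fell (53.8% and 5.13%), and the median difference was 0.35, between 0.258 and 0.427 in the 4 lines. The receptor gene Tlr2 stood at 6.03, 6.46 and 6.45 in parental cells and at 8.42, 8.77, 8.50 and 8.23 in tumour lines (2.17, SE 0.15, limma adjusted p = 1.39e-05). Nfkbiz, a nuclear IkB protein that turns on secondary response genes, rose by 1.93 (SE 0.14) and the ubiquitin ligase gene Birc3 by 1.88 (SE 0.16), although another probe set of Birc3 (0.14) was not called. The falls were those of Tnip2 (-0.38) and Irak2 (-0.28), and the call of Irak2 ended without parental array 1 (adjusted p = 0.0682 in limma) and without parental array 2 (0.0554). Of 76 interleukins and their receptors 18 rose and 5 fell (23.7% and 6.58%), with 12 rises of at least 2-fold. Clcf1, which signals through the CNTF receptor, was even at 9.99 to 10.20 over the lines against 7.34 to 7.62 (2.63, SE 0.09). Il6 stood at 4.54, 4.38 and 4.12 in parental cells and at 7.15, 5.82, 7.84 and 7.23 in tumour lines (2.66, SE 0.40, limma adjusted p = 0.00105), with line 4 the lowest of them. Lifr, a receptor chain for cytokines of the same family, fell by 1.79 (SE 0.36), and another of its probe sets (-0.54) was not called. TNF family ligands and receptors gave 12 rises and 4 falls among 41 (29.3% and 9.76%). Tnfrsf1b rose by 1.12 (0.15 and not called with another probe set), and Tnfrsf4 (-2.52) and Eda2r (-2.84) fell. Among 30 STAT, SOCS and IRF genes 9 rose and 6 fell, Socs2, a feedback inhibitor of cytokine and growth hormone receptors, by 4.03 (SE 0.15). Of 45 complement and coagulation genes 9 rose and 3 fell, with C1ra of the C1 complex up by 2.79 and the thrombin receptor gene F2r down by 2.61.

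Growth factor and developmental pathways moved in both directions. Among 17 Hedgehog pathway genes 1 rose and 8 fell (5.88% and 47.1%), with a median of -0.32. Gli2, the main activator among the GLI factors, stood at 10.84 to 10.89 in parental cells and at 8.07, 6.79, 9.04 and 6.62 in lines 3, 4, 5 and 6, a fall of 3.24 (SE 0.53, limma adjusted p = 0.00155). The receptor gene Ptch1, itself a target of the pathway, fell from a mean of 10.49 to 9.49 (SE of the difference 0.19), and Hhip, which binds Hedgehog ligands outside the cell, rose by 1.01 from a low level (4.91). Another probe set of Ptch1 differed by 0.15 and was not called. Of 31 Hippo pathway genes 8 rose and 11 fell (61.3% called). The cofactor gene Vgll3 rose from 7.07 to 7.36 to 10.96 to 11.78 (4.12, SE 0.20), and Tead2, one of the DNA-binding partners of YAP, fell by 1.97 (SE 0.17). FGF genes gave 4 rises and 3 falls among 31, with the ligand genes Fgf7 (1.67) and Fgf18 (1.44) up and Fgf5 (-1.26) down. In the VEGF, angiopoietin and endothelin systems 7 of 23 rose and 3 fell, Angpt1 by 2.05, Ece1, which cleaves endothelin from its precursor, by 2.19, and Vegfb by -1.82. Of 34 guidance genes 4 rose and 8 fell, with Flrt3 (-2.74) and the repulsive guidance genes Rgma (-1.92) and Rgmb (-1.83) lower and Slit3 (1.16) higher.

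Receptors and second messengers showed single strong members beside many that were not called. Of 88 adhesion and orphan G protein-coupled receptors 9 rose and 9 fell (20.5% called). Lgr5, the R-spondin receptor of stem cells, went from 8.63 to 8.84 to 5.36 to 5.56 (-3.31, SE 0.08), with another probe set at -0.08 that was not called, and Adgra2 fell by 3.28 and Adgrg6 by 3.28, the latter by 1.52 with its other probe set. The purine receptor gene P2rx7 rose by 2.82 (SE 0.13) and the prostaglandin F receptor gene Ptgfr by 2.45 (SE 0.31), in a family of 41 with 9 rises and 3 falls. In the cyclic AMP system 11 of 64 rose and 13 fell, and 10 of the rises reached 2-fold against 3 of the falls. Pde4b, a phosphodiesterase that breaks down cyclic AMP, stood at 6.62, 6.46 and 6.48 and then at 11.06, 10.87, 11.37 and 10.92 (4.53, SE 0.12, limma adjusted p = 1.14e-07). Pde8a (3.33) and Pde4d (3.28) rose as well, and 3 of the 5 other probe sets of Pde4b and the other one of Pde4d were not called. Of 37 protein tyrosine phosphatases 8 rose and 10 fell, with Ptpn22 at 2.52 and the receptor type Ptprd at -3.23, and 4 of 6 other probe sets of Ptprd were not called.

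At the cell surface and in the cytoskeleton, calcium-binding and caveolar genes leaned upward. Of 24 annexins and S100 proteins 10 rose and 3 fell, with 7 rises and 0 falls of at least 2-fold. S100a4, a gene linked to cell motility, was already at 13.01 to 13.05 in parental cells and reached 14.44 to 14.56 (1.47, SE 0.06). S100a3 (2.80), S100a1 (2.69) and Anxa8 (2.64) rose more, from levels of 7.10 to 7.84. Of 13 caveola genes 5 rose and 2 fell, Cav1 by 1.81 (SE 0.14) and Cav2 by 1.80 (SE 0.14), 2 genes that form the caveolar coat together. Of 61 actin bundling and capping genes 10 rose and 11 fell, Avil by 4.47 and Limch1 by -3.02, and Tmsb4x, which sequesters actin monomers, fell from a mean of 13.74 to 11.73. Myh10, the non-muscle myosin IIB heavy chain, fell from 12.92 to 13.01 to 9.30 to 9.93 (-3.36, SE 0.13). Tight junction genes gave 2 rises and 8 falls among 31, and immunoglobulin adhesion molecules 3 rises and 8 falls among 39, with Vcam1 at -1.86. Among 48 ADAM and ADAMTS proteases 10 rose and 7 fell, Adamts20, known for a role in pigment cell precursors, by -3.44.

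Of 68 syntaxins, VAMPs, SNAPs and synaptotagmins 22 rose and 6 fell (32.4% and 8.82%), with Syt13 (3.39, SE 0.20) and Vamp5 (2.30, SE 0.10) at the top. Rab GTPases, which label membrane compartments, gave 21 rises and 8 falls among 59. Autophagy genes gave 15 rises and 2 falls among 36, with a median of 0.23 and 0.169 to 0.262 in the lines. Gabarap, which coats autophagosome membranes, stood at 11.87 to 11.95 and then at 12.87 to 13.19 (1.11, SE 0.09), and the processing protease gene Atg4a rose by 1.27 (SE 0.07). Of 47 caspases, gasdermins and death adaptors 7 rose and 3 fell, both shares below those of all genes, with the necroptosis gene Mlkl up by 2.05 (SE 0.13) and Apaf1, which starts the mitochondrial caspase cascade, down by 0.96 (SE 0.14).

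Of the transport and metabolism lists given here, tricarboxylic acid cycle genes leaned downward most. Several others lay near the shares of all genes (16.6% rose and 19.4% fell). Of 35 iron and haem genes 10 rose and 6 fell (28.6% and 17.1%). The ferroxidase gene Cp rose by 3.97 (SE 0.58) with 8.99 to 11.89 in the lines, the reductase gene Steap4 by 3.18 (another probe set, 0.25, was not called) and Hfe by 2.29, while the exporter Slc40a1, as given above, fell. Of 45 ABC transporters 9 rose and 10 fell, with Abca1 and Abcg1, known to export cholesterol and phospholipid, up by 4.52 (SE 0.35) and 2.05 (SE 0.14), and 1 of the 2 other probe sets of Abca1 (0.01) was not called. Of 28 prostaglandin and phospholipase A2 genes 6 rose and 4 fell (21.4% and 14.3%, near the shares of all genes). The phospholipase gene Pla2g4a (1.25), the cyclooxygenase gene Ptgs2 (1.24) and the synthase gene Ptges (1.07) rose, and Pla2g7 fell by 2.66. Of 37 genes of the tricarboxylic acid cycle and pyruvate use 3 rose and 17 fell (8.11% and 45.9%), with a median of -0.27. This list is highly expressed, and of all genes above the median level 31.4% fell. The isocitrate dehydrogenase genes Idh1 (-1.11, SE 0.15) and Idh2 (-0.96, SE 0.18) and Pck2 (-1.11, SE 0.09) were lower, and the phosphatase gene Pdp1, which activates pyruvate dehydrogenase, rose by 1.38. Retinoid genes gave 6 rises and 5 falls among 30. The retinoic acid receptor gene Rarb (-2.73), the retinol carrier receptor gene Stra6 (-2.47) and Dhrs3 (-1.86) fell together with Crabp1. Of 103 glycosyltransferases 16 rose and 27 fell (15.5% and 26.2%), with Galnt12 (-4.12), Galnt18 (-3.32) and Csgalnact1, from a mean of 9.43 to 6.43, as the largest falls.

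Lists of chromatin and splicing genes had more called falls than rises, and these genes are highly expressed. The shares of Polycomb and Trithorax genes (34.9%) and of splicing factors (35.4%) that fell lie near the 31.4% of all genes above the median level. Of 45 genes of chromatin remodelling ATPase complexes 2 rose and 23 fell (4.44% and 51.1%), with a median of -0.31 and -0.332 to -0.222 in the lines. Only 2 of the falls reached 2-fold, Phf10 (-1.18, SE 0.11) and Arid1a (-1.07, SE 0.17), both subunits of BAF complexes, and the chromodomain gene Chd7, mutated in a human syndrome of crest-derived structures, rose by 1.01. Of 43 Polycomb and Trithorax genes 6 rose and 15 fell, among them the menin gene Men1 (-1.16, SE 0.12) and Asxl1 (-1.05, SE 0.08). Of 99 hnRNP and SR splicing factors 9 rose and 35 fell, the falls all under 2-fold, Hnrnph3 by 0.93 and Sf3b2 by 0.85. Celf4, a splicing regulator of neurons, rose by 2.32 (SE 0.11). The histone variant gene H2ax, which marks DNA breaks, fell from 12.18 to 12.19 to 10.21 to 10.81 (-1.68, SE 0.13). Homologous recombination and Fanconi genes gave 6 rises and 15 falls among 37, and 0 of them reached 2-fold.

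Some families of transcription factors changed in most of their members. Of 26 C/EBP, NFI, MAF and MEF2 genes 12 rose and 7 fell, 73.1% of them called. Cebpd, a C/EBP factor of the acute phase response, stood at 8.62, 8.57 and 8.39 and then at 11.81, 11.36, 12.37 and 11.97 (3.35, SE 0.21, limma adjusted p = 7.98e-06), Maf rose by 2.56 and Nfil3 by 1.80. Of 21 core clock genes 9 rose and 5 fell (66.7% called). Arntl, the clock activator also called Bmal1, read 7.23, 7.07 and 7.01 and then 8.97, 8.96, 8.99 and 8.80 (1.82, SE 0.08), and its partner Clock rose by 1.51 (SE 0.09). Dbp, an output gene of the clock, was at 10.53 to 10.55 and then at 9.18 to 9.29 (-1.31, SE 0.06), and another of its probe sets gave -1.35. Another probe set of Arntl (0.16) was not called. No time of harvest is given in the labels. The next lists were called less often than the 36.0% of all genes. Outside the Hox clusters 21 of 132 homeobox genes rose and 18 fell (29.5% called). Prrx2 rose by 2.26, while Zfhx4 fell from a mean of 10.97 to 6.97. Among lineage factors of the T-box, GATA, RUNX and bHLH classes 12 of 83 rose and 13 fell (30.1% called). Ahr (3.19) and Epas1 (2.70, but 0.16 and not called with another probe set) rose. Gata6, of endoderm and mesoderm, fell from 9.26 to 9.63 to 6.30 to 6.57 (-3.01, SE 0.11).

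Families of general upkeep differed from one another. Only 14.6% of 48 cytosolic ribosomal protein genes were called, 6 as rises and 1 as a fall. Respiratory chain subunits gave 8 rises and 21 falls among 83 and constitutive proteasome subunits 5 and 5 among 34, with 0 changes of 2-fold in either. Aminoacyl-tRNA synthetases, by contrast, gave 4 rises and 20 falls among 37 (10.8% and 54.1%), with a median of -0.39 and -0.430 to -0.302 in the lines. Mars1, for methionine, fell by 0.97 (SE 0.09), close to Lars and Iars2 above. Their largest rise was that of Farsa, for phenylalanine (1.84, SE 0.13), which lies in the stretch of chromosome 8 described further on. Heat shock genes gave 20 rises and 17 falls among 86, and the largest rises were those of Hspb1 (3.04, SE 0.19), Hspb6 (2.92, SE 0.11) and Hspb8 (2.19, SE 0.09). Hspb1 read 8.71, 8.68 and 8.99 in parental cells and 12.12, 11.48, 11.54 and 12.20 in the lines, without overlap.

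Within some families single members went opposite ways. The pairs given here are the largest called rise and the largest called fall of a list, picked by that rule, and say nothing of the list as a whole. Among tubulins, Tubb2a stood at 8.64, 8.41 and 8.52 in parental cells and at 11.65, 10.51, 12.45 and 11.96 in the lines (3.12, SE 0.39, limma adjusted p = 0.000359). With its other probe set Tubb2a rose by 0.80. Tubb3, the neuronal beta-tubulin, was at 9.43, 9.59 and 9.29 and then at 5.62, 5.85, 5.58 and 5.78 (-3.73, SE 0.10). The other tubulins called numbered 1 rise and 2 falls among 16 measured. Sox2, a factor of stem and progenitor cells, rose from 3.65 to 4.05, at the floor, to 6.74 to 8.94 (3.81, SE 0.46), with line 4 the highest. Sox11, of differentiating neurons, fell from 11.50 to 11.60 to 9.66 to 9.97 (-1.72, SE 0.09), and its 5 other probe sets fell too, by 1.65 to 2.35. Of the cellular retinoic acid binding proteins, Crabp2 rose by 1.73 (SE 0.28) and Crabp1 fell by 2.82 (SE 0.13). Foxf1 rose by 3.72 (SE 0.30) while Foxd1, a forkhead gene of embryonic stroma, fell by 2.08 (SE 0.31). Protocadherins split into Pcdh17 (1.77, SE 0.40) and Pcdh7 (-4.23, SE 0.30). In 4 of the pairs drawn the call of a gene named in the text depended on the setting. Drawn genes that the text does not name were not checked for this. The rise of the sialyltransferase gene St8sia4 (2.34) was not called when any 1 parental array or tumour line 3 was left out (limma adjusted p from 0.0506 to 0.0691) or with a trended prior (0.0524), and the fall of Abca9 (-1.31) was not called without parental array 2 (0.0518). Without probe sets that may bind several transcripts, Angptl4 differed by 0.36 in place of 3.88 (limma adjusted p = 0.0511) and Il17d by -0.20 in place of -2.53 (limma adjusted p = 0.141).

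**Figure D3:**
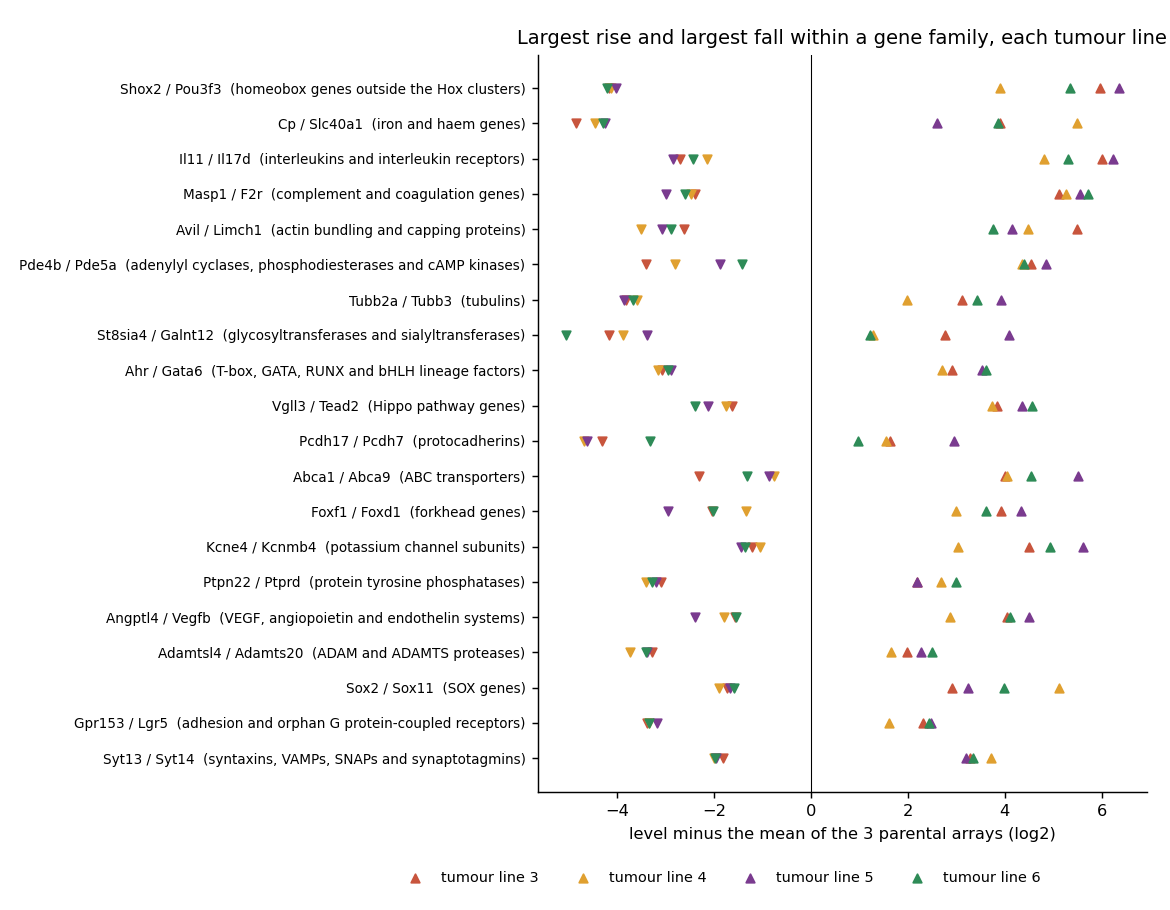
Difference from the mean of the 3 parental arrays (log2, x axis) of the largest rise (upward triangles) and the largest fall (downward triangles) in the 20 families where these lie furthest apart, 1 colour a tumour line. Every line lies on the same side of 0 for each gene drawn.

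The direction of change was not spread evenly over the chromosomes. On chromosome 2, 9.72% of 1399 genes rose and 28.2% fell, and on chromosome 12 9.49% of 622 rose and 22.5% fell. Chromosomes 11 and 16 leaned the other way, with 25.4% and 22.8% of their genes called as rises and 12.1% and 9.61% as falls, and on chromosome 15 181 of 724 genes rose and 86 fell. Over genes above the median level, the median difference was -0.064 in all, -0.253 on chromosome 2 and -0.272 on chromosome 19. It was 0.146 on chromosome 11 and 0.135 on chromosome 15. For chromosome 2 lines 3, 4, 5 and 6 gave -0.265, -0.148, -0.395 and -0.215, and the array labelled GFP-transfected -0.148. Parental arrays set against each other gave chromosome medians between -0.048 and 0.037. Single lines stood apart on some chromosomes: line 4 read -0.537 on chromosome 12 where the others read -0.149 to -0.114, and line 5 read -0.503 on chromosome 19 where they read -0.211 to -0.134. Line 6 read 0.096 on chromosome 9, against -0.122 to -0.109.

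**Figure D4:**
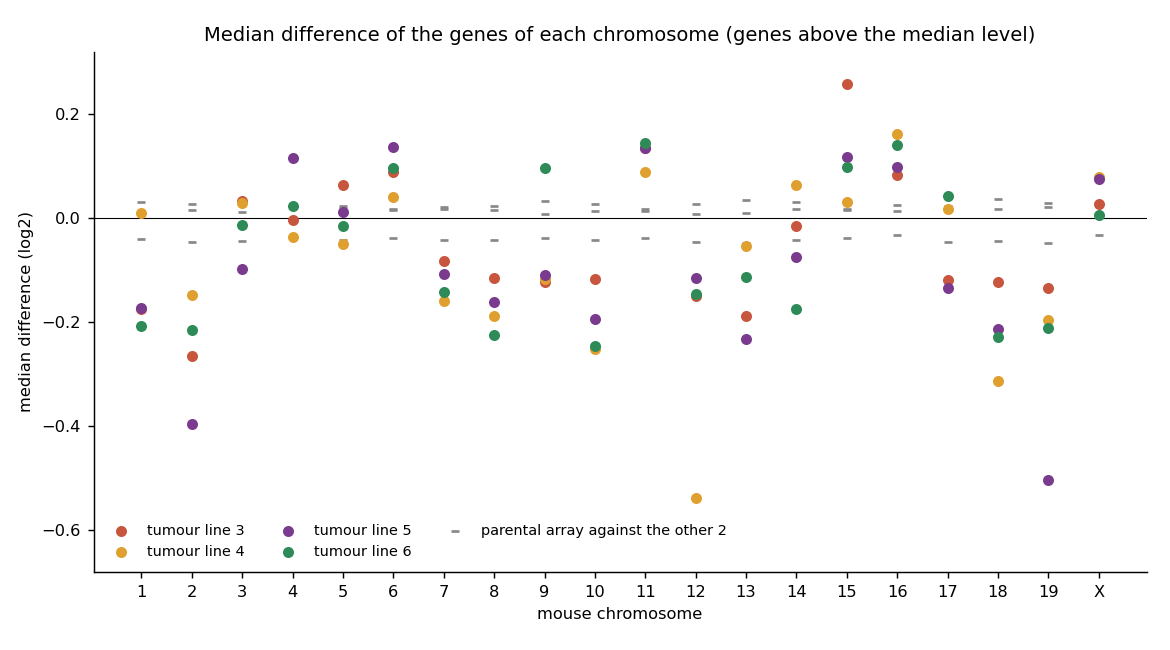
Median difference from parental cells (log2, y axis) of the genes of each chromosome that lie above the median level, 1 coloured point a tumour line; grey dashes give each parental array against the mean of the other 2. Points for chromosome 12 in line 4 (-0.537) and chromosome 19 in line 5 (-0.503) lie lowest.

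Neighbouring genes that changed together were most conspicuous on chromosome 8. Along the chromosomes, 18 runs of 5 or more neighbouring measured genes were all called as rises and 20 all as falls, among 18030 genes with a place. The longest run held 15 genes, from Vps35 to Cbln1, with a median difference of 2.05, and the next 11, from Dcaf15 to Trmt1, with a median of 2.16. Both lie on chromosome 8, in a stretch from Dnajb1 to Zfp423 whose limits were set after its values were seen, so that its counts are a description. It holds 67 measured genes, of which 53 rose, 1 fell and 13 were not called. Of the 49 that lie above the median level 46 rose (93.9%) and 40 rose by at least 2-fold, with a median difference of 1.80. That median was 1.93, 1.64, 1.90 and 1.63 in lines 3, 4, 5 and 6 and -0.098 on the array labelled GFP-transfected. Of the 20 measured genes on each side, those above the median level had a median of 0.031 before the stretch (12 genes) and -0.171 after it (13 genes). In the rest of chromosome 8, 10.9% of 865 genes rose and 28.7% fell. Of the 70 rises of at least 2-fold on the whole chromosome, 44 lie in the stretch.

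The size of the called changes in the stretch ranged widely, from the fall of Adgre5 to rises over 4. Asf1b, a histone chaperone of DNA replication, stood at 10.09, 10.21 and 10.10 in parental cells and at 12.65, 12.70, 12.61 and 12.63 in the lines (2.51, SE 0.07, limma adjusted p = 1e-07). Phkb, a subunit of the kinase that activates glycogen breakdown, read 9.42, 9.36 and 9.17 and then 11.80, 11.76, 11.84 and 11.73 (2.46, SE 0.08). For both genes the 4 lines lay closer to each other than the parental arrays did. The AP-1 gene Junb (3.22, SE 0.19), the calcium channel gene Cacna1a (3.19, SE 0.09), the cochaperone gene Dnajb1 (2.24, SE 0.08), the peroxisomal protease gene Lonp2 (2.47, SE 0.10), the lysosomal mannosidase gene Man2b1 (2.49, SE 0.09), Cc2d1a (2.83, SE 0.14) and Dcaf15 (2.55, SE 0.12) rose as well. Asf1b, Junb and Man2b1 were chosen after their values were seen, and 2 of the 3 other probe sets of Cacna1a were not called. Neto2, an accessory subunit of kainate receptors, rose most (4.24, SE 0.22), from 6.60 to 6.73 to 10.48 to 11.52. The only called fall in the stretch was that of Adgre5, an adhesion receptor gene (-1.29, SE 0.20). Zfp423, at one end, rose by 1.49, and its call ended without parental array 2 (limma adjusted p = 0.0504). The red cell factor Klf1, the only called gene among 8 red cell markers, also lies there (1.58), and so do 16 genes of the families above, among them Farsa, Nfix, Dnajb1 and Cacna1a.

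**Figure D5:**
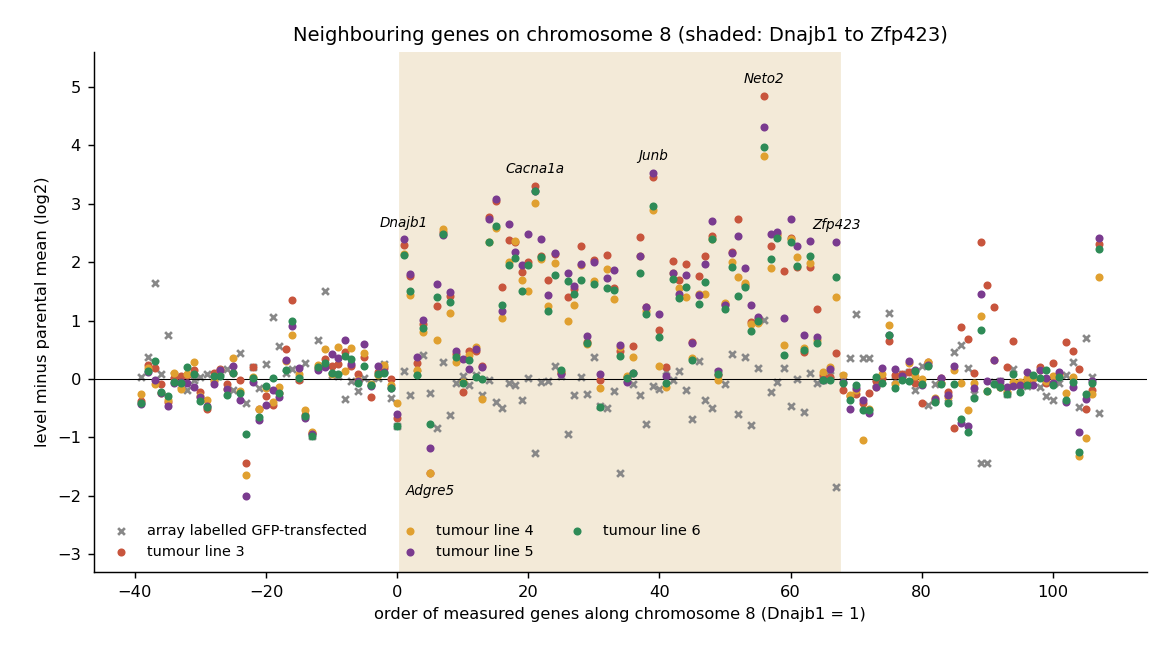
Difference from the parental mean (log2, y axis) of measured genes in their order along chromosome 8 (x axis, with Dnajb1 as 1 and 40 genes drawn on each side), coloured points for tumour lines 3 to 6 and grey crosses for the array labelled GFP-transfected; the shading runs from Dnajb1 to Zfp423. In the shaded stretch the medians of the 4 lines lie between 1.37 and 1.64 and that of the crosses is -0.079.

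Other runs were shorter or smaller. On chromosome 6, 9 neighbours from Skap2 to Hoxa10 fell with a median of -1.41, although the call of Skap2 ended when any 1 parental array was left out (limma adjusted p from 0.0614 to 0.0738), with quantile normalization repeated (0.0523) and with the mean of its probe sets (0.606). Hoxc4 to Hoxc9 on chromosome 15 fell as a run of 5 with a median of -1.20. Hox genes set position along the body axis. On chromosome 19, 8 neighbours from Stambpl1 to Ifit1bl1 rose with a median of 0.708. The X chromosome held 2 runs of 6 that rose, from Flna to Fam50a (median 1.21) and from Lage3 to Dkc1 (median 0.966).

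Promoter sequences were set beside the direction of change. In the RefSeq table of the mouse assembly GRCm38.p6, 11720 of the measured genes had exactly 1 promoter, of 300 bases, from 250 before to 50 after the start. The AP-1 site TGACTCA, searched on both strands, was in 7.28% of 522 promoters of genes with rises of at least 2-fold, in 3.39% of 413 with falls of that size, in 4.20% of all measured genes and in 5.20% of all promoters in the table. The E-box CACGTG, the same on both strands, was in 10.5% of the promoters of those rises, 9.44% of those of falls, 9.05% of measured genes and 7.15% of the table. It was in 11.6% of promoters of rises under 2-fold, and, with only genes above the median level counted, in 11.2% of rises of at least 2-fold, 9.46% of falls and 11.7% of genes not called. For TGACTCA these level-matched shares were 7.67%, 3.38% and 3.34%. The cyclic AMP response element TGACGTCA was in 2.49%, 1.21%, 2.71% and 1.79%, the TATA box TATAAA in 10.9%, 9.69%, 10.2% and 13.6%, and the CCAAT box in 35.4%, 41.9%, 38.7% and 37.4%. None of these 5 motifs contains another, and a match describes letters in this window only. A ratio of observed to expected CpG above 0.6 was found for 52.5% of the promoters of rises of at least 2-fold, 70.0% of those of falls and 57.4% of all measured genes. Over genes above the median level it was 57.8% for those rises, 71.6% for those falls and 84.7% for genes not called.

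Below are 4 promoters of genes whose level passed the floor or lay near it in 1 group, shown 5' to 3' along the gene with the matched letters in capitals, to show where the E-box and the AP-1 site lie; they were chosen after their sequences and values were seen. Srpx2, a secreted ligand of the urokinase receptor, rose from 4.95, 5.38 and 4.81 to 9.16, 9.63, 9.23 and 9.77 (4.40, SE 0.19), and its promoter (chrX:133908175-133908474, plus strand) holds CACGTG at 196 bases and TGAGTCA, the AP-1 site on the other strand, at 59 bases before the start. The promoter of Il6 (chr5:30012864-30013163, plus strand) holds TGAGTCA at 249 bases and that of Casp1 (chr9:5298267-5298566, plus strand) CACGTG at 137 bases before the start. Bex1, which went from 12.96 to 12.98 in parental cells to 3.65 to 3.87 in the lines, has CACGTG from 3 bases before the start (chrX:136215464-136215763, minus strand), and the match runs across the start. Among these picked examples the same letters lie in promoters of genes that rose and of 1 that fell, which says nothing of genes at large.
Srpx2: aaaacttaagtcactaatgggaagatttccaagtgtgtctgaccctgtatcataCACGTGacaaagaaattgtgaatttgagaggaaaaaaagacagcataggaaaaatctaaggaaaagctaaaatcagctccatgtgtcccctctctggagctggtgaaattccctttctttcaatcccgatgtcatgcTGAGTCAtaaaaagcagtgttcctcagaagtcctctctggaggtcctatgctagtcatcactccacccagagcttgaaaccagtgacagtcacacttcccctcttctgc
Il6: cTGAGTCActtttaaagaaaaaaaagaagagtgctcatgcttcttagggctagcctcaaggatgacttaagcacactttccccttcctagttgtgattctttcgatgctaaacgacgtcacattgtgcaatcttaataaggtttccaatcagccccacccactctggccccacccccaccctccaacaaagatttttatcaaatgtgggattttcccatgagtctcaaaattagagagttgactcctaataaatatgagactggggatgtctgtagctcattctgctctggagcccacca
Casp1: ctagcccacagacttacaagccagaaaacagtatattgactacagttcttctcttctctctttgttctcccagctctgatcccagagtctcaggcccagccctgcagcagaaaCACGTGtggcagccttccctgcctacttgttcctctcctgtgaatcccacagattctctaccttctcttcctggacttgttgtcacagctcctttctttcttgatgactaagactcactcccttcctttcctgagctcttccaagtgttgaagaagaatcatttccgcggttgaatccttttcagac
Bex1: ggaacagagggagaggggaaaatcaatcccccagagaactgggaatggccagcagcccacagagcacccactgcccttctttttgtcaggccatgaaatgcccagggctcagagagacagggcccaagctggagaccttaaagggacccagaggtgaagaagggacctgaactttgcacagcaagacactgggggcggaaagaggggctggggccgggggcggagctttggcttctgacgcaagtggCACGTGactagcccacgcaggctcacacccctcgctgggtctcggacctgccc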

How the data were processed

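Expression was measured on 8 Affymetrix arrays, of which 7 were compared. The authors deposited log2 values made with RMA in Partek, per the submitters' processing notes. RMA corrects background, equalises the distributions of the arrays and summarises the probes of a set, so a difference shared by most genes would be removed. Array medians were 6.26 to 6.30. A genome build, and versions of RMA and Partek, were not given in the sources used here. Raw scanner files were not used here.

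Of 45101 probe sets, 64 are controls, 34945 have 1 gene symbol, 932 several and 9160 none in the platform annotation, and those with several or none were left out. Gene IDs of 34741 probe sets were found in the RefSeq table of GRCm38.p6, which also gave gene order and promoters, and 0 symbols changed. For each of 18193 genes the probe set with the highest mean level was kept. In 118 of the 9010 genes with over 1 probe set, probe sets were called in opposite directions, and of 201 called genes named in the text 40 have another probe set that was not called.

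Differences were fitted on log2 values with lmFit and eBayes in limma 3.58.1 (R 4.3.3) with Benjamini-Hochberg adjustment over all genes. The array labelled GFP-transfected was in the fit as a group of its own. The fit was tested on simulated data. Precision is limited by 3 parental arrays and 4 tumour lines.

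Named genes are 8 anchors (Mycn and crest genes), ranks 9 to 24 of called rises and falls, up to 3 called rises and 3 falls of each family, the 6 tightest rises and 6 tightest falls under 2-fold, 8 switched genes each way, members of the 3 longest runs, and the largest rise and fall of families that moved both ways; others are said to be chosen after their values were seen, as were the end genes of other runs and their order on the chromosome. Ranks 9 to 24 were taken among called genes whose 4 tumour lines all lie beyond all 3 parental arrays. Families, lists and members were chosen with earlier results of these data known, and some list patterns were corrected after seeing which symbols they matched. Another 2 gene lists are not reported here. Alternatives were other choices of probe set, filters, scalings, priors, array weights and leaving out each array. Family medians without the stretch of chromosome 8 and chromosome medians under 3 other settings were added after seeing the data.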

Additional observations from a re-analysis of the deposited data

Results flagged for a closer look

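A value of 1 tumour line lay far from the other 3 for 17 of 210 named genes, 5 of 74 gene lists and 3 of 20 chromosomes. Chance alone sets apart about 1 in 20 groups of this kind, so most of these may be no more than that, and none was tested further. Line 3 stood apart for Cbln1 (8.14, others 7.58 to 7.66), Dkc1 (12.57, others 12.66 to 12.68), Hnrnph3 (9.48), Nrk (5.19), Pde4d (11.49) and Sox10 (7.47). Line 4 stood apart for Abcg1 (7.19, others 7.73 to 7.76), Hoxa10 (5.78) and Perp (9.27, others 10.43 to 10.50). Line 5 stood apart for Ece1 (11.06), Ngfr (5.08), Stambpl1 (9.62) and Susd1 (12.06, others 10.23 to 10.54). Line 6 stood apart for Arntl (8.80), Celf4 (10.88), Flna (12.26) and Islr (6.12, others 4.99 to 5.12).

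Among lists, the median difference from parental cells was 0.026 in line 6 for actin bundling and capping proteins (others -0.060 to -0.055), -0.015 in line 3 for the VEGF, angiopoietin and endothelin systems, -0.203 in line 5 for Hedgehog pathway genes (others -0.370 to -0.344), -0.029 in line 3 for adhesion and orphan G protein-coupled receptors and -0.029 in line 4 for zinc finger protein genes. Chromosome medians set apart line 4 on chromosome 1 (0.010, others -0.206 to -0.173) and chromosome 12 (-0.537), and line 6 on chromosome 9 (0.096).

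The array labelled GFP-transfected, which is in no comparison here, read 11.73 for Mycn, above the 7.29 to 7.49 of parental cells.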

How the results depend on the processing

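Testing every probe set singly gave 11843 calls (5420 rises, 6423 falls) and 2673 of at least 2-fold (1449 and 1224) among 34945 probe sets, since more features were tested. Keeping only the 9096 genes above the median level gave 574 rises of at least 2-fold. The other counts stayed within 1.5 times those reported. Leaving out 1 array at a time gave 5030 to 6649 calls and 1552 to 1648 of at least 2-fold, fewest without parental array 1. With 15 settings, 194 of 201 called genes named in the text kept their call in each setting they were tested in, 0 changed direction, and the exceptions, Irak2, Skap2, Zfp423, St8sia4, Abca9, Angptl4 and Il17d, are given with their values above. With probe sets averaged per gene, the log2 difference was over 1.5 times smaller for 47 of the 201 called genes. Of 18 lists with a median of at least 0.1 either way, 1 (tubulins) changed sign in a setting. Of all 74 lists 34 did, so medians near 0 carry no direction. Chromosome medians changed sign under another setting only for chromosomes 3 and 5. No paired analysis was possible because no label ties a parental array to a tumour line.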
